A study of Mus musculus with 12 samples.

Results

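Coenzyme A (CoA) is built from pantothenate (vitamin B5) and carries the acyl groups of fatty acid oxidation, ketone body synthesis and the TCA cycle. The 9 genes described here cover its supply and its breakdown in liver. They were chosen by symbol for their known roles, at a time when earlier results of these data were known. Each symbol matched 1 of the 48795 genes in the deposited table. *Vnn1* and *Vnn3* code for vanins, which cleave pantetheine to pantothenate and cysteamine and so return vitamin for new synthesis. *Pank1*, *Pank2* and *Pank3* code for pantothenate kinases, which catalyse the controlling first step of synthesis. *Ppcs* codes for the enzyme that joins phosphopantothenate to cysteine, and *Coasy* for the bifunctional enzyme that ends the pathway. *Nudt7* and *Nudt19* code for peroxisomal hydrolases that cut CoA and its esters, *Nudt7* being known from liver and *Nudt19* best known from kidney. The amount of CoA in liver is known to rise in fasting, and *Vnn1* and *Pank1* are known targets of the nuclear receptor PPARα, which is active in the fasted hepatocyte.

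Liver RNA was sequenced from 12 female mice, all 4 months old and on normal chow. The question was how neurotensin (*Nts*) wild type and knockout livers differ in the fed and the fasted state. *Nts* codes for a gut and brain peptide. The 3 mice 254, 257 and 323 were labelled Nts+/+ and fed ad libitum, and 265, 282 and 322 were labelled Nts+/+ and fasted for 22 h. Mice 277, 303 and 319 were labelled Nts-/- and fed, and 284, 290 and 295 were labelled Nts-/- and fasted for 22 h. The knockout is a whole-body one, bred from Nts+/- parents, and the mice were matched littermates, so a liver difference between genotypes need not start in the liver. The genotype labels did not pass the check on the targeted gene. *Nts* had 0 counts in all 6 libraries labelled Nts+/+ and between 4 and 46 counts in each of the 6 labelled Nts-/-. Why the counts ran this way was not tested. Directions between genotypes are therefore those of the labels. The feeding labels do not rest on that gene.

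Levels are TMM-normalized CPM, that is, read counts scaled for library size and composition, and levels of different genes are compared only after dividing by the length of the longest transcript in kb. Library totals ran from 21999647 to 45273069 counts. Changes were tested with edgeR's quasi-likelihood test across 13812 genes, and a change was called at a Benjamini-Hochberg adjusted p under 0.05. The p values measure the spread between single mice. In whole liver, fewer cells of a type and less RNA per cell cannot be told apart. The 6 hepatocyte markers (*Alb*, *Apoa1*, *Ttr*, *Tat*, *Cps1* and *Hnf4a*) summed to between 103263 and 135606 CPM in the 12 mice, with ranges that overlapped between the fed and fasted groups. The kidney proximal tubule list, fixed because *Nudt19* is a kidney gene, summed to at most 0.19 CPM, with *Slc34a1* and *Kap* at 0 in every mouse.

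Sequences upstream of the members are shown because 4 of these genes, *Vnn3*, *Pank1*, *Ppcs* and *Nudt7*, moved with feeding state in the results that follow. They are the 250 bases before a RefSeq transcription start in GRCm38.p6, written 5′ to 3′ on the gene's own strand. The table of promoters matched 7 of the 9 members with 11 starts, and *Vnn1* and *Coasy* had no entry. Capitals mark the motifs searched on both strands: the CCAAT box (CCAAT), the GC box (GGGCGG), the TATA box (TATAAA), the nuclear receptor half-site (AGGTCA), the E-box (CACGTG) and the cyclic AMP half-site (TGACG). Of all 32851 promoter windows of this length, 33.9% held CCAAT, 32.7% GGGCGG, 12.4% TATAAA, 14.0% AGGTCA, 6.02% CACGTG and 17.8% TGACG. The full PPAR-type element AGGTCANAGGTCA was in 11 windows in all, none of them of a member, which says only that these letters were not in these windows. No 2 of these motifs overlap in the sequences shown. The *Vnn3* window (chr10:23851212-23851461, plus strand) held 3 CCAAT boxes. *Pank1* has a pair of starts, and the upstream window (chr19:34879456-34879705, minus strand) held 2 TATA boxes while the other (chr19:34877918-34878167, minus strand) held 2 CCAAT boxes. The *Ppcs* window (chr4:119422421-119422670, minus strand) held 1 nuclear receptor half-site. *Nudt7* also has a pair of starts, with overlapping windows. The one shown (chr8:114133368-114133617, plus strand) held 4 GC boxes and 1 cyclic AMP half-site, and the other (chr8:114133324-114133573) held 4 GC boxes without that half-site. Such boxes were not limited to the genes that moved. Windows of *Pank2* and *Pank3*, which were not called and are not shown, held CCAAT and GC boxes, and a further *Pank2* window held none of the motifs. The *Nudt19* window, also not shown, held none, although *Nudt19* was called over both genotypes.
Vnn3: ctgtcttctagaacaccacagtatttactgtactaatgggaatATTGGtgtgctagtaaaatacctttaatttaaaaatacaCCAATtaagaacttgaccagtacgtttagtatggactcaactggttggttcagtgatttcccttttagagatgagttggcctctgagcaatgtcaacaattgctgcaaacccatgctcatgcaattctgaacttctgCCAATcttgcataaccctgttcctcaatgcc
Pank1 upstream start: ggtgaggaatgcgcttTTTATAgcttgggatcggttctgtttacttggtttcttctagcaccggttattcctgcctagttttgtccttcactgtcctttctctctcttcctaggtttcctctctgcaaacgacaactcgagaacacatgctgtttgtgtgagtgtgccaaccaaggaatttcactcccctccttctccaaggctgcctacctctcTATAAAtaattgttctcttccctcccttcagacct
Pank1 downstream start: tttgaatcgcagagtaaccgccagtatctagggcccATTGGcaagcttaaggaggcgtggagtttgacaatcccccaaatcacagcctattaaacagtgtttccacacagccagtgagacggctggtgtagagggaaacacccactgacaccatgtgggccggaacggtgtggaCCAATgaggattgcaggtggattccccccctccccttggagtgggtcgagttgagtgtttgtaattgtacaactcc
Ppcs: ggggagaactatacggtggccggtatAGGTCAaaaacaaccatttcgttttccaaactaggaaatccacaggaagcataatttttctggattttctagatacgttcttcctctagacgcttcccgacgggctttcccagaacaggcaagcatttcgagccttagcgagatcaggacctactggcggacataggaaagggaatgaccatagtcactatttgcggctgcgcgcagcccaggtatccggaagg
Nudt7: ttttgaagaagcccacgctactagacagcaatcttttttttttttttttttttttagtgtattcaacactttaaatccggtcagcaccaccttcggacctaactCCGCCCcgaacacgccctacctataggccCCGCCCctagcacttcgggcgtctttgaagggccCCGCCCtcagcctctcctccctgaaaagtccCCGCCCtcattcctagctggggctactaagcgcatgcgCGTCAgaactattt

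The 3 kinase genes also host microRNAs of a single seed family. *Mir107* lies within *Pank1*, *Mir103-2* within *Pank2* and *Mir103-1* within *Pank3*. Their 3p products, from RefSeq on GRCm38.p6, share the seed GCAGCAU (bases 2 to 8, in capitals), and miR-103-3p is the product of both *Mir103* hairpins. The site of miR-107-3p is chr19:34820700-34820722 on the minus strand, and miR-103-3p lies at chr2:131288103-131288125 and chr11:35782447-35782469, both on the plus strand. The hairpin genes themselves were listed at 0 counts in all 12 mice, so the RNA measured here is that of the hosts, and mature microRNAs were not analysed here.
miR-107-3p: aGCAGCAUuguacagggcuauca
miR-103-3p: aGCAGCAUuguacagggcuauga

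In the livers labelled Nts+/+, fasting raised *Vnn1*, *Vnn3* and *Ppcs* and lowered *Nudt7*, while the remaining 5 members did not pass the test. In those labelled Nts-/-, the same 4 genes were called in the same directions and *Pank1* rose as well. So 3 members were called higher and 1 lower of 9 in Nts+/+, where 8.91% of all tested genes were called higher and 9.19% lower (18.1% in all). In the livers labelled Nts-/-, 4 members were called higher and 1 lower, beside 7.70% and 9.14% of all genes (16.8% in all). Over both genotypes, 6 fasted against 6 fed mice, 5 were called higher and 1 lower, beside 16.0% and 16.8% of all genes (32.8% in all). The median log2 change over the 9 members in that comparison was 0.40, and over all genes it was −0.01. The members were chosen with earlier results of these data known, so these counts are a description.

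**Figure D1:**
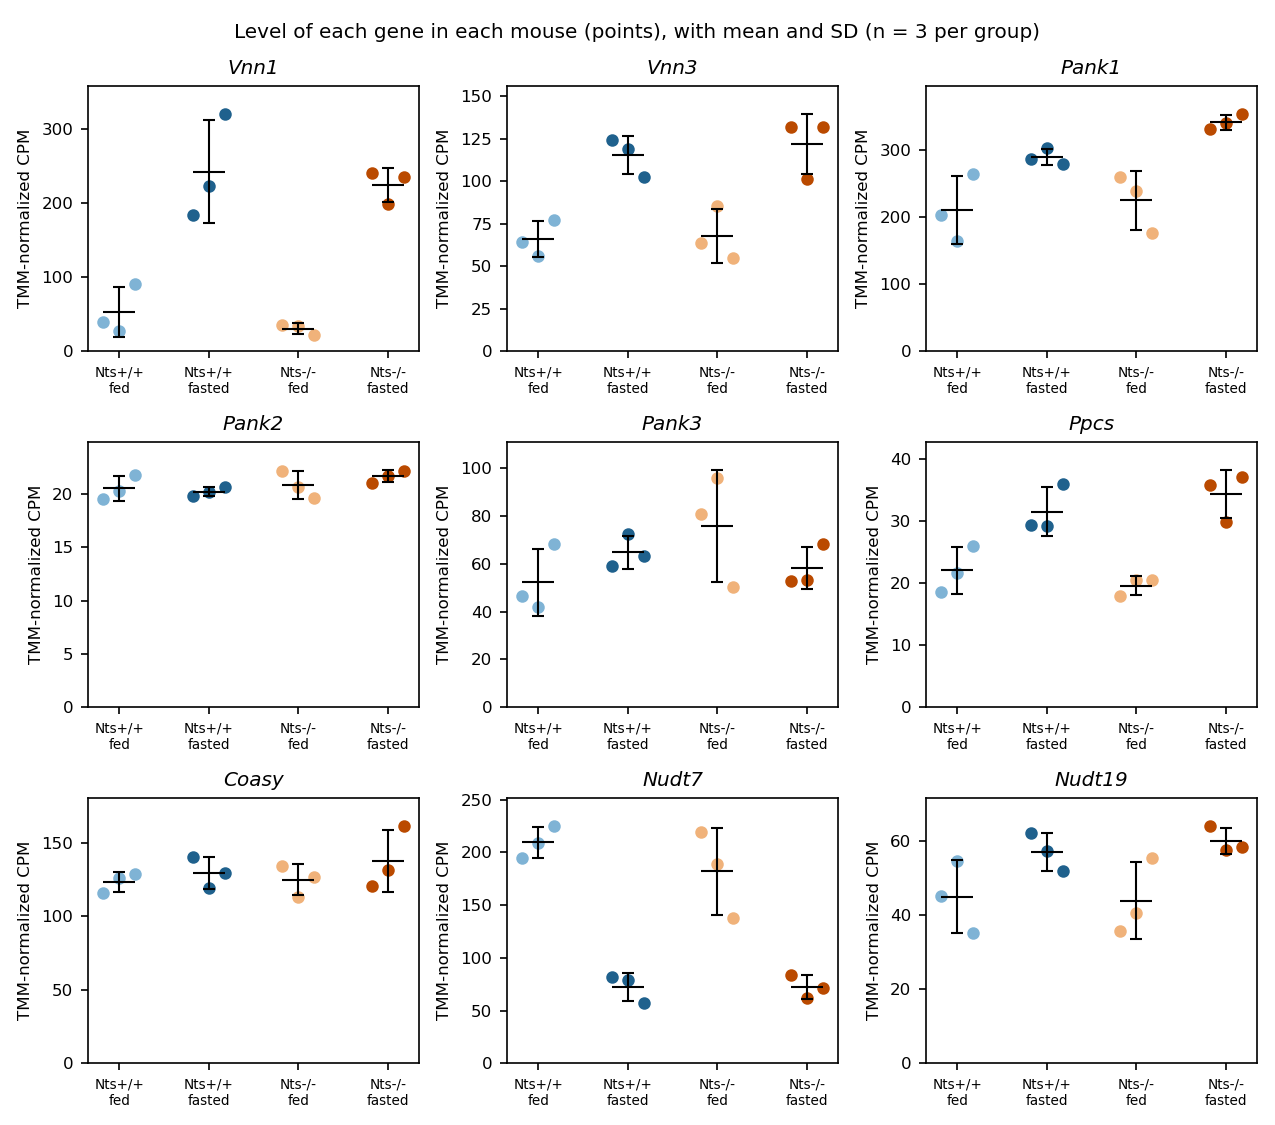
TMM-normalized CPM of the 9 genes (y axis, from 0) in the 4 labelled groups (x axis). Each point is 1 mouse, the horizontal line is the mean and the bar is ± 1 SD over the 3 mice. *Vnn1* is at or above 185 in all 6 fasted mice and at or below 91.6 in all 6 fed ones, and *Nudt7* runs the other way, with fasted mice at or below 84.1 and fed mice at or above 138.

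Both vanins rose after fasting. *Vnn1* (ENSMUSG00000037440, chromosome 10, 23894688 to 23905343 in GRCm38) stood at 40.3, 27.9 and 91.6 CPM in fed Nts+/+ mice and at 185, 224 and 320.1 in fasted ones. The mice labelled Nts-/- had 35.8, 33.7 and 22.6 when fed and 240.5, 199 and 235 when fasted. Every fasted mouse was above every fed mouse in both genotypes. The fed Nts+/+ mouse 323 stood apart from the other 5 fed mice, at more than the sum of the values of its group mates. By edgeR, *Vnn1* was 4.57-fold higher after fasting in Nts+/+ (log2 2.19 ± 0.40 SE, 95% interval 1.31 to 3.07, adjusted p = 0.00462). The rise was 7.32-fold in livers labelled Nts-/- (log2 2.87 ± 0.41 SE, interval 1.96 to 3.78, adjusted p = 0.0012).

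The gap between those rises rested on mouse 323. The difference between them was 0.68 on the log2 scale (95% interval −0.52 to 1.88, edgeR adjusted p = 0.901), and without mouse 323 it was 0.04. Without that mouse the Nts+/+ rise itself was 2.84 (adjusted p = 0.000111). Mouse 323 was also the highest of the 6 fed mice for 7 of 11 PPARα target genes (the list is given further on) and for 4 of the 9 members. Its total of 21999647 counts was the lowest of the 12. What sets this mouse apart was not tested.

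*Vnn3* (ENSMUSG00000020010, chromosome 10, 23851462 to 23869843), whose window is printed above, ends 24844 bases before *Vnn1* starts and is on the chromosome that also holds *Nts*. It measured 64.3, 56.3 and 77.4 CPM in fed Nts+/+ mice and 124, 119 and 103 in fasted ones. With the Nts-/- label it measured 63.7, 85.6 and 54.7 when fed and 132, 101 and 132 when fasted. Fed and fasted mice again did not overlap. The rise was 1.75-fold in Nts+/+ (log2 0.80 ± 0.18 SE, adjusted p = 0.00773 by edgeR) and 1.79-fold in livers labelled Nts-/- (0.84 ± 0.18 SE, adjusted p = 0.00621). The difference between the 2 rises of *Vnn3* was 0.03 with a 95% interval from −0.50 to 0.57.

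Within the groups, the order of the mice was partly shared by the vanins. The 3 fed Nts+/+ mice had the same order for both genes, with 257 lowest and 323 highest, and mice 319 and 290, both labelled Nts-/-, were the lowest of their groups for both. In fasted Nts+/+ mice the orders were opposite, and mouse 322 had the highest *Vnn1* and the lowest *Vnn3*. Pearson's r of the log2 levels was 0.605 over the 6 fed and −0.246 over the 6 fasted mice, a description of 6 points each from libraries that share their scaling. Per kb, *Vnn1* was between 0.48 and 1.14 times *Vnn3* in fed Nts+/+ mice and between 1.43 and 3.00 times in fasted ones. For the Nts-/- label the ratio was between 0.38 and 0.54 when fed and between 1.71 and 1.88 when fasted. *Vnn3* was thus the more abundant vanin per kb in 5 of the 6 fed mice, all but mouse 323, and *Vnn1* in all 6 fasted mice. With the union of exons as length, *Vnn3* was the more abundant in all 6 fed mice, with mouse 323 at a ratio of 0.80, and the ratio in fasted mice ran from 1.00 to 2.10. Counts of both vanins were whole numbers in all 12 mice, so the deposited counts show no sign of reads divided between them and other genes. How reads that match several genes were handled was not examined.

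Among the kinases, *Pank1* (ENSMUSG00000033610, chromosome 19, 34810894 to 34879455), the main pantothenate kinase of liver, was the member that rose. It measured 203, 164 and 264 CPM in fed Nts+/+ mice and 286, 302 and 279 in fasted ones. Mice labelled Nts-/- had 259.7, 238 and 176 when fed and 331, 339 and 353 when fasted. All 6 fasted mice were above all 6 fed mice, and the fasted groups were tight, with coefficients of variation of 4.12% and 3.20% against 24.0% and 19.3% in the fed groups. By edgeR, the change was 0.46 ± 0.18 SE in Nts+/+, which did not pass the test (adjusted p = 0.0866). It did pass without mouse 323 (0.66, adjusted p = 0.0206). In livers labelled Nts-/-, the rise of 0.60 ± 0.18 SE passed (1.52-fold, adjusted p = 0.0311), and leaving out any one of mice 303, 319, 284, 290 and 295 left an adjusted p between 0.0556 and 0.0836. Over all 12 mice it was 0.53 ± 0.12 SE, or 1.44-fold (adjusted p = 0.00512).

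*Pank2* (ENSMUSG00000037514, chromosome 2, 131262495 to 131299188), whose human counterpart is a mitochondrial kinase, had the smallest spread of the 9 genes within groups (coefficient of variation at most 6.22%). Its lowest value among the 12 mice was 19.5 CPM and its highest 22.2, with group means of 20.5 ± 1.18, 20.2 ± 0.40, 20.8 ± 1.30 and 21.7 ± 0.56 (SD, n = 3 each, in the order fed and fasted Nts+/+, then fed and fasted labelled Nts-/-). The change with fasting over both genotypes was 0.02 with a 95% interval of −0.14 to 0.17 on the log2 scale, so that interval leaves out the size of the *Pank1* rise. Its counts were fractional in all 12 mice, so part of its reads was shared with other features by the authors' estimate.

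*Pank3* (ENSMUSG00000018846, chromosome 11, 35769484 to 35791285), a cytosolic kinase under feedback by acetyl-CoA, was spread widely between fed mice. It measured 46.6, 41.9 and 68.1 CPM in fed Nts+/+ mice, then 58.9, 72.3 and 63.1 in fasted ones. In mice labelled Nts-/-, it measured 81.0, 96.0 and 50.3 when fed and 53.0, 53.1 and 68.4 when fasted. The groups overlapped in every comparison. The change with fasting was 0.31 ± 0.23 SE in Nts+/+ and −0.38 ± 0.23 SE in those labelled Nts-/-, neither past the test by edgeR (adjusted p = 0.377 and 0.281). Without mouse 319, the lowest of the fed mice labelled Nts-/-, the latter was −0.60 and passed (adjusted p = 0.0486). The difference between the fasting changes was −0.69 (95% interval −1.39 to 0.01, unadjusted p = 0.052 and adjusted p = 0.897 by edgeR).

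Per kb, *Pank1* made up between 64.2% and 78.8% of the summed level of the 3 kinase genes. Its share was 67.8% to 71.5% in fed Nts+/+ mice and 73.7% to 75.3% in fasted ones. Under the Nts-/- label it was 64.2% to 68.3% when fed and 76.6% to 78.8% when fasted. The fasted mice were above the fed mice of their own label, and the ranges of the genotypes did not overlap in the fasted state. For comparison, the levels of 12.2% of all tested genes did not overlap between genotypes when fasted. In the fed state the ranges overlapped and the means ran the other way, 66.7% under the Nts-/- label against 70.2% in Nts+/+. None of the kinase genes was called between genotypes. *Pank3* gave 12.4% to 26.0% and *Pank2* 8.48% to 14.8%. The summed level of the 3 genes was 39.8 ± 8.78 CPM per kb in fed and 51.9 ± 2.40 in fasted Nts+/+ mice, and 44.9 ± 8.82 and 58.3 ± 2.72 in those labelled Nts-/- (SD, n = 3 each). These shares depend on the length given to each gene and were not tested.

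**Figure D2:**
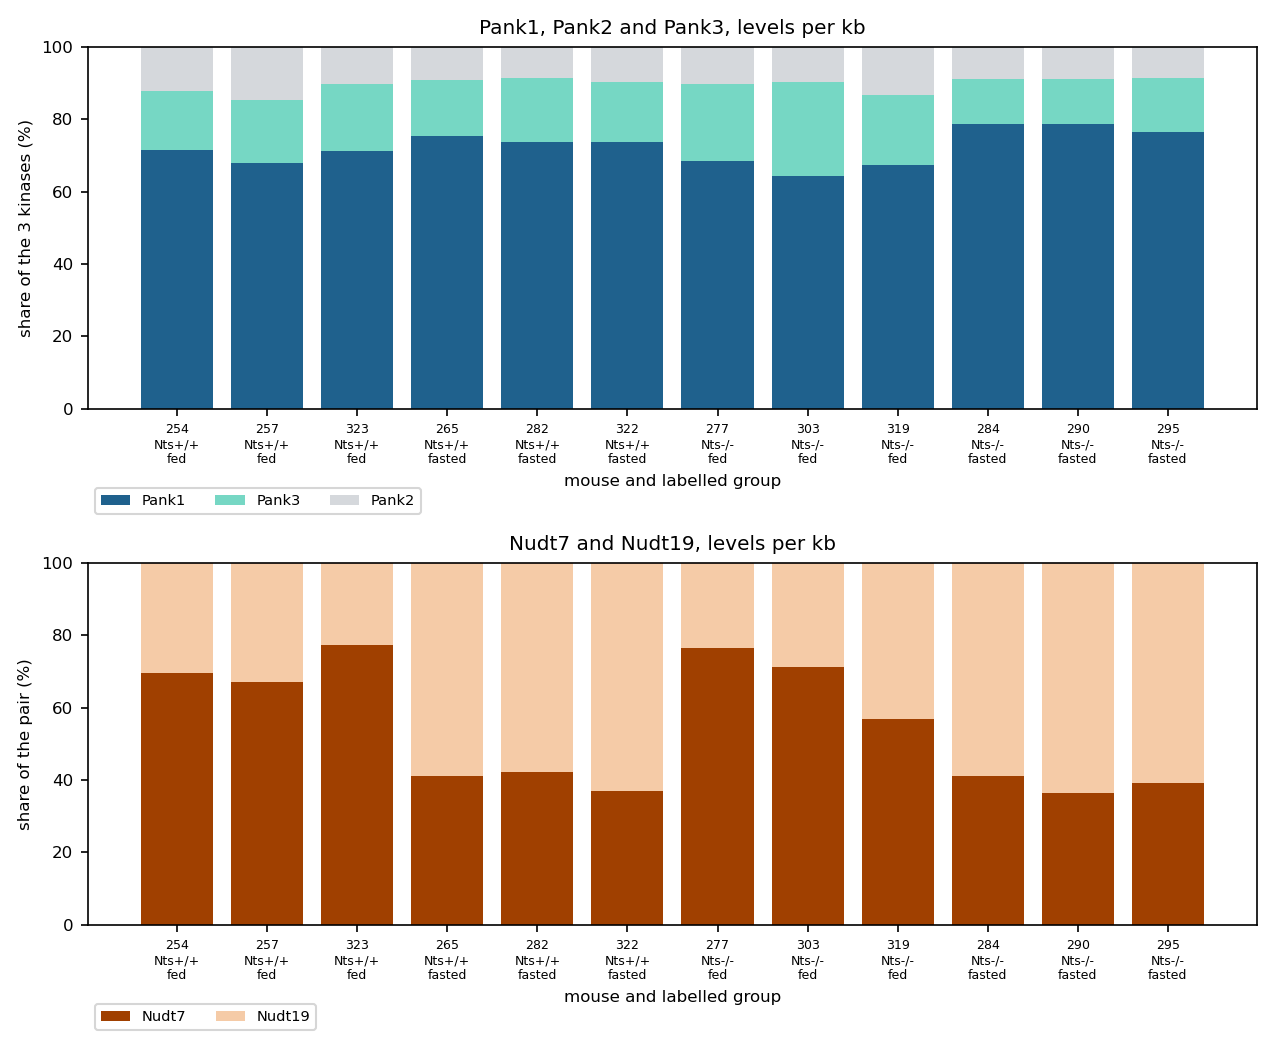
Share of the summed level per kb (y axis, %) in each of the 12 mice (x axis, mouse number and label). The upper panel shows *Pank1*, *Pank3* and *Pank2*, with *Pank1* between 64.2% and 78.8%, and the lower panel shows *Nudt7* and *Nudt19*, with *Nudt7* between 56.8% and 77.2% in fed and between 36.4% and 42.3% in fasted mice.

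The enzymes after the kinases parted ways. *Ppcs* (ENSMUSG00000028636, chromosome 4, 119418530 to 119422420) measured 18.6, 21.7 and 26.1 CPM in fed Nts+/+ mice and 29.4, 29.2 and 36.1 in fasted ones. Its values in mice labelled Nts-/- were 17.9, 20.5 and 20.5 when fed and 35.9, 30.0 and 37.3 when fasted. Fed and fasted mice did not overlap. The rise was 1.43-fold in Nts+/+ (log2 0.51 ± 0.14 SE, edgeR adjusted p = 0.026) and 1.75-fold in livers labelled Nts-/- (0.81 ± 0.15 SE, adjusted p = 0.00225). The Nts+/+ call was lost without any one of mice 254, 257, 282 and 322 (adjusted p between 0.0532 and 0.128), while the rise over both genotypes, 0.66 ± 0.10 SE, had an edgeR adjusted p of at most 0.00138 whichever mouse was left out.

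*Coasy* (ENSMUSG00000001755, chromosome 11, 101082565 to 101086619) measured 115, 126 and 128 CPM in fed Nts+/+ mice and 140.4, 119 and 129 in fasted ones. The values were 134, 113 and 127 in fed and 120.5, 131 and 161 in fasted mice labelled Nts-/-. All 4 groups overlapped. The change over both genotypes was 0.11 (95% interval −0.09 to 0.31, adjusted p = 0.411 by edgeR), an interval that reaches no further than 0.31 while that of *Ppcs* starts at 0.44.

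On the side of breakdown, *Nudt7* fell in both genotypes, while *Nudt19* was called higher over both genotypes together but in neither alone. *Nudt7* (ENSMUSG00000031767, chromosome 8, 114133557 to 114154739) measured 194, 209 and 225 CPM in fed Nts+/+ mice and 81.6, 79.2 and 57.4 in fasted ones. Livers labelled Nts-/- had 219, 189 and 138 when fed and 84.1, 62.2 and 71.2 when fasted. The lowest fed mouse, 319, was still above the highest fasted mouse. In Nts+/+, *Nudt7* was 2.88-fold lower after fasting (log2 −1.53 ± 0.19 SE, 95% interval −1.93 to −1.13, edgeR adjusted p = 0.000202). In livers labelled Nts-/-, it was 2.51-fold lower (−1.33 ± 0.19 SE, interval −1.73 to −0.93, adjusted p = 0.000393). It ranked 116 of 13812 genes by p over both genotypes, the first of the 9 members, and no omission of a mouse brought its change over both genotypes closer to 0 than −1.35.

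*Nudt19* (ENSMUSG00000034875, chromosome 7, 35547185 to 35556304) measured 45.0, 54.6 and 35.1 CPM in fed Nts+/+ mice and 62.0, 57.3 and 51.7 in fasted ones. In mice labelled Nts-/-, it measured 35.6, 40.5 and 55.4 when fed and 63.9, 57.5 and 58.4 when fasted. Fed and fasted mice overlapped in Nts+/+, through mice 257 and 322, and did not in those labelled Nts-/-. Neither change passed alone (0.34 and 0.45, edgeR adjusted p = 0.196 and 0.0946), although without mouse 319 the latter did (0.66, adjusted p = 0.0174). Over both genotypes, it rose by 0.40 ± 0.12 SE or 1.32-fold (adjusted p = 0.025), a call lost in 7 of the 12 fits that left out 1 mouse (adjusted p between 0.0509 and 0.0672). Those omitted were mice 254, 323, 265, 282, 277, 303 and 284. Like *Pank2*, it had fractional counts in all 12 mice.

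Per kb, the pair changed order with feeding state. *Nudt7* was 67.0% to 77.2% of the summed *Nudt7* and *Nudt19* level per kb in fed Nts+/+ mice and 37.0% to 42.3% in fasted ones. In mice labelled Nts-/-, it was 56.8% to 76.6% when fed and 36.4% to 41.1% when fasted. *Nudt7* was thus the larger of the pair per kb in all 6 fed mice and the smaller in all 6 fasted mice, with either length. The lengths stand in nearly the same proportion (5.835 and 3.09 kb, or 6.408 and 3.472 kb with the union of exons), so this choice could not test the order. Before dividing by length, *Nudt7* was above *Nudt19* in each fasted mouse too, at 57.4 to 84.1 against 51.7 to 63.9 CPM. The order in fasted mice therefore rests on the length given to each gene.

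**Figure D3:**
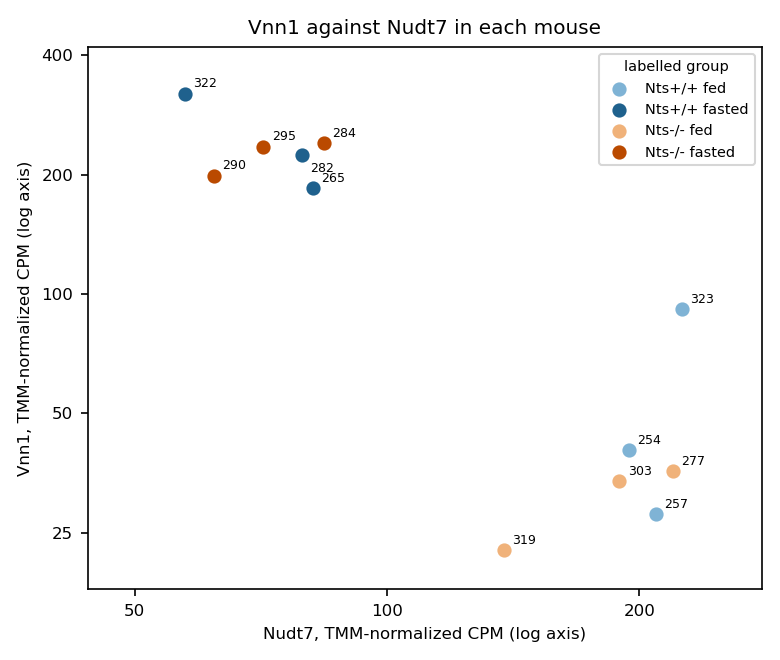
TMM-normalized CPM of *Vnn1* (y axis, log scale) against *Nudt7* (x axis, log scale). Each point is 1 mouse with its number, coloured by labelled group. The 6 fasted mice lie at the upper left, with *Vnn1* at or above 185 and *Nudt7* at or below 84.1, and the 6 fed mice at the lower right. Mouse 323 has the highest value of both genes among the fed mice.

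Within a feeding state, *Vnn1* and *Nudt7* did not run against each other in the same way. Pearson's r of their log2 levels was 0.65 over the 6 fed mice and −0.52 over the 6 fasted mice, each set holding both genotypes. These are descriptions of 6 points. Among fed mice, *Pank1* and *Nudt19* ran nearly opposite (r = −0.99, n = 6). The 2 lowest fed mice for *Pank1*, 257 and 319, were the 2 highest for *Nudt19*, and mice 323 and 277 were the highest for *Pank1* and the lowest for *Nudt19*. In the 6 fasted mice that r was 0.37. The fed value was the most extreme r within a state between *Vnn1*, *Pank1* or *Nudt7* and the other members. In fed mice, *Nudt19* also had a negative r with *Vnn1* (−0.75) and with *Nudt7* (−0.66). The points of each r come from the same libraries and share their scaling.

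Groups of 3 mice did not overlap between fed and fasted for 5 members in Nts+/+ (*Vnn1*, *Vnn3*, *Pank1*, *Ppcs* and *Nudt7*), where 36.0% of all tested genes did not overlap. In livers labelled Nts-/-, this held for those 5 and *Nudt19*, beside 35.2% of all genes. Comparing all 6 fasted with all 6 fed mice, it held for the first 5 members, beside 15.9% of all genes.

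**Figure D4:**
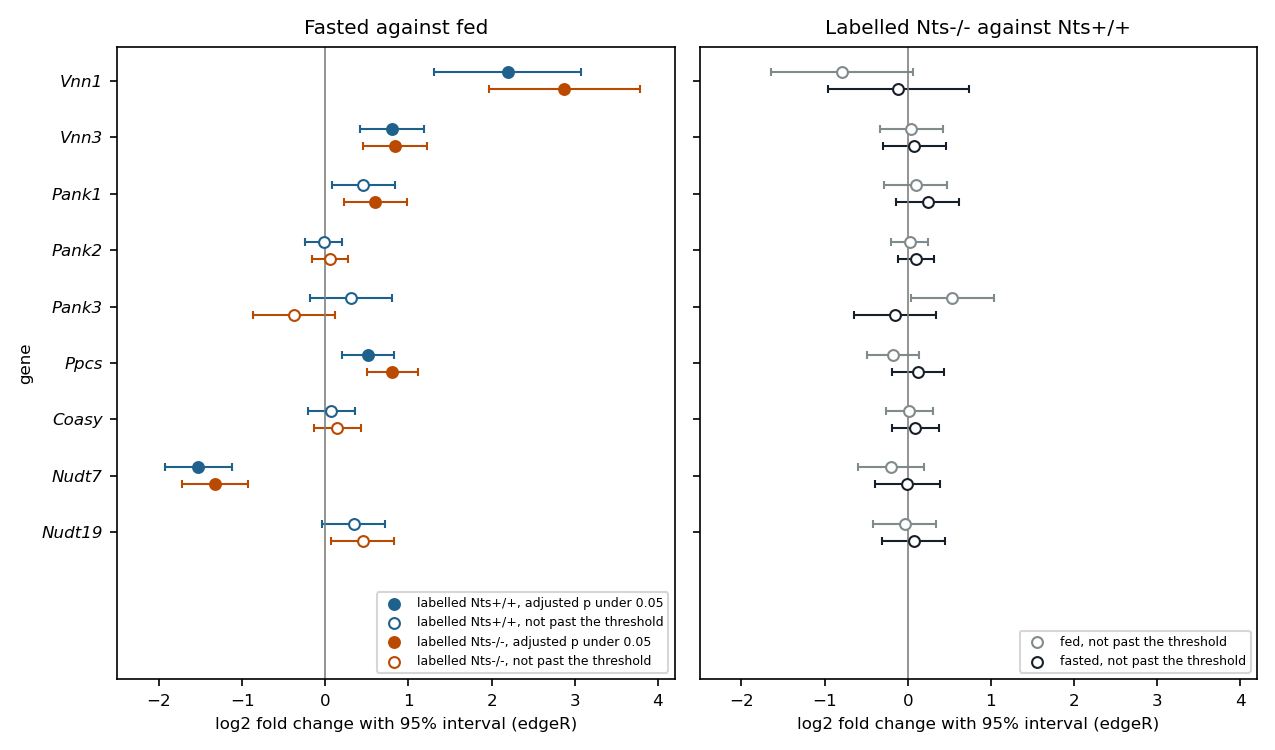
Log2 fold change (x axis) of the 9 genes (y axis) with its 95% interval by edgeR. The left panel shows fasted against fed for each genotype label, and the right panel shows mice labelled Nts-/- against Nts+/+ in each feeding state. Filled points have an adjusted p under 0.05, and all 18 points of the right panel are open.

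Between genotypes, no member was called. Of all 13812 genes, 0% were called by edgeR in the fed state, in the fasted state, over both states, or for the difference between the fasting changes, so the 0 of 9 members says little about these genes in particular. At an unadjusted p under 0.05 there were 876, 685, 859 and 663 genes in those 4 comparisons, of which 1, 0, 0 and 0 were members. DESeq2 called 8, 4, 16 and 3 genes and 0 members. The 1 member was *Pank3*, which was 0.54 higher on the log2 scale in fed mice labelled Nts-/- (95% interval 0.04 to 1.03, unadjusted p = 0.0356, adjusted p = 0.765 by edgeR). Its levels there, 50.3 to 96.0 CPM, overlapped with 41.9 to 68.1 CPM in fed Nts+/+ mice.

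The intervals set what genotype differences these 3 mice a group leave possible. For *Vnn1*, the fed difference was −0.79 (95% interval −1.65 to 0.06), and −0.15 without mouse 323. The fasted *Vnn1* difference was −0.11 (−0.95 to 0.73). For *Nudt7* the fasted difference was −0.0048 with an interval of −0.40 to 0.39. For *Pank1*, the mice labelled Nts-/- were all higher than the Nts+/+ ones in the fasted state, 331 to 353 against 279 to 302 CPM, a difference of 0.24 (interval −0.14 to 0.61, edgeR adjusted p = 0.917). *Pank2* did not overlap either, at 21.1 to 22.2 against 19.8 to 20.6 CPM (0.10, interval −0.12 to 0.32). These were 2 of 9 members without overlap, beside 12.2% of all genes, and in the fed state it was 0 of 9 beside 10.7%.

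Per kb, the order of the 9 levels differed between feeding states. In fed Nts+/+ livers, *Coasy* was highest at 45.5 ± 2.57 CPM per kb (SD, n = 3), followed by *Nudt7* at 35.9 ± 2.59, *Vnn3* at 28.4 ± 4.59, *Pank1* at 28.0 ± 6.74 and *Vnn1* at 22.0 ± 14.0. The last 3 of these did not differ beyond their spread. *Nudt19* at 14.5 ± 3.17 and *Ppcs* at 13.3 ± 2.27 were alike within their spread, and *Pank3* at 6.98 ± 1.86 and *Pank2* at 4.81 ± 0.28 were lowest.

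In fasted Nts+/+ livers, *Vnn1* led at 100.4 ± 28.8 CPM per kb, before *Vnn3* at 49.6 ± 4.84 and *Coasy* at 47.8 ± 3.97, which did not differ beyond their spread. *Pank1* followed at 38.5 ± 1.59, *Ppcs* at 18.9 ± 2.36 and *Nudt19* at 18.4 ± 1.66, the last pair again within their spread. *Nudt7* had dropped to 12.5 ± 2.28, below *Nudt19*, with *Pank3* at 8.65 ± 0.92 and *Pank2* at 4.74 ± 0.09 below it. The livers labelled Nts-/- had this same order of 9 when fasted, from *Vnn1* at 93.0 ± 9.38 to *Pank2* at 5.08 ± 0.13. When fed, they had *Coasy* first at 46.0 ± 3.89. *Vnn1* at 12.7 ± 2.94 and *Nudt19* at 14.2 ± 3.35 did not differ beyond their spread there. *Vnn1* was above *Nudt19* per kb in mice 277 and 303 and below it in mouse 319. Among the 13698 tested genes with a length, *Vnn1* ranked 1962 by its mean over the 6 fed mice and 493 over the 6 fasted mice. *Pank2* ranked 4848 and 4888. These orders and ranks depend on the length given to each gene. With the union of exons as length, *Vnn3* at 44.1 to 53.4 CPM per kb lay above *Coasy* at 35.4 to 41.8 in fasted Nts+/+ mice. *Vnn1* was then at 53.5 to 92.6 in those mice.

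Of 12 other genes of CoA supply, transport, use and breakdown, all tested, 2 were called higher and 0 lower after fasting over both genotypes, beside 16.0% and 16.8% of all genes. The share called higher was thus near that of all genes. Both genes called code for mitochondrial carriers. *Slc25a42*, which brings CoA into mitochondria, rose by 0.73 ± 0.09 SE on the log2 scale (1.66-fold, edgeR adjusted p = 7.19e-05). *Slc25a16*, a carrier linked to mitochondrial CoA, rose by 0.40 ± 0.08 SE (1.32-fold, adjusted p = 0.00179). Both were called in Nts+/+ (0.55 and 0.49). In those labelled Nts-/-, *Slc25a42* was called at 0.91, and *Slc25a16* stood at 0.31 with an edgeR adjusted p of 0.0762.

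The other 10 did not pass. Closest were *Slc5a6*, the transporter that takes up pantothenate and biotin, at 0.34 (adjusted p = 0.0558 by edgeR) and *Dcakd*, a gene related to the last kinase step, at 0.30 (adjusted p = 0.0584). *Ppcdc*, the enzyme between *Ppcs* and *Coasy*, was at −0.07 with an interval of −0.30 to 0.15. *Nudt8*, a mitochondrial CoA hydrolase of the *Nudt7* family, was at 0.01 with an interval of −0.24 to 0.27. *Pank4*, the kinase relative, was at −0.19 and *Ado*, which oxidizes the cysteamine that vanins release, at 0.11. Between genotypes, 0 of the 12 were called by edgeR in either feeding state.

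**Figure D5:**
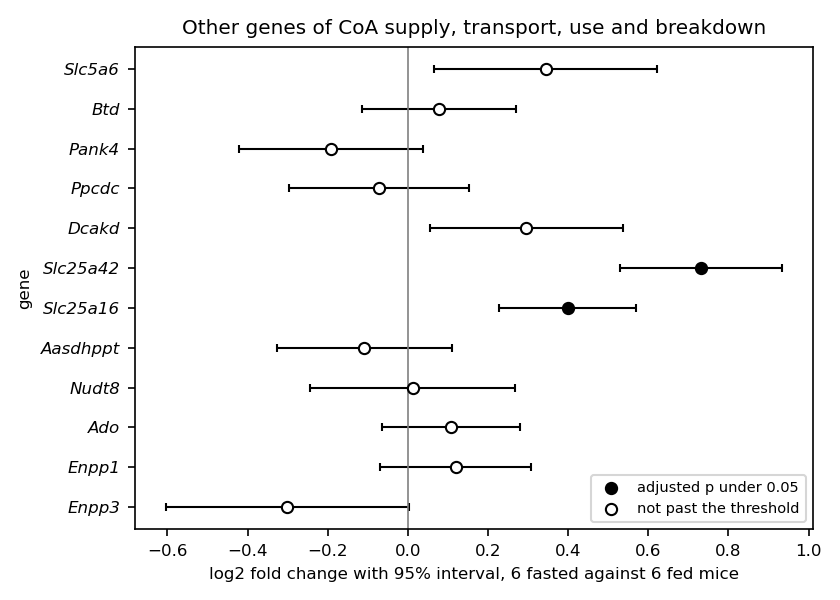
Log2 fold change of 12 further genes of CoA supply, transport, use and breakdown (y axis), 6 fasted against 6 fed mice (x axis), with 95% intervals by edgeR. Filled points, *Slc25a42* at 0.73 and *Slc25a16* at 0.40, have an adjusted p under 0.05.

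Known PPARα targets rose in the same livers. Of a list of 11, 10 were called higher over both genotypes, all but *Pdk4* (0.87, edgeR adjusted p = 0.0529), and 0 lower. Of all tested genes, 16.0% were called higher and 16.8% lower in that comparison. Their median log2 change was 1.60, beside −0.01 over all genes. *Acot1*, a thioesterase that frees CoA from acyl-CoA, rose by 2.80 ± 0.23 SE, and *Ehhadh*, a peroxisomal oxidation enzyme, by 2.90 ± 0.18 SE. The rise of *Vnn1*, 2.53 ± 0.29 SE, lay within the range of the list, 0.87 to 3.63, and that of *Pank1*, 0.53 ± 0.12 SE, lay below it. The list was chosen with earlier results of these data known, so its counts are a description. Whether PPARα had a part in the rises of *Vnn1* and *Pank1* was not tested.

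The tested genes most like 3 of the members over the 12 mice were found by Pearson's r of log2 CPM (prior count 2). Fed and fasted mice form separate clusters for these genes, so r within each state is given. For *Vnn1* they were *Fitm2* (0.88 in 6 fed and 0.23 in 6 fasted mice), *Retsat* (0.86 and 0.89) and *Ddhd2* (0.84 and 0.77). For *Pank1* they were *Gm4952* (0.97 and 0.88), *4933421O10Rik* (0.96 and 0.76) and *Lgals8* (0.98 and 0.67). For *Nudt7* they were *Cutal* (0.83 and 0.75), *Cyp4f14* (0.62 and 0.93) and *Cpb2* (0.56 and 0.81). All share libraries and scaling, and the genes were picked for their likeness.

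Some markers of other liver cells were called with fasting too. By edgeR over both genotypes, where 16.0% of all genes were called higher and 16.8% lower, 4 of 6 stellate cell markers were called lower, as were 3 of 6 sinusoidal endothelium markers (1 was called higher), 1 of 4 tested cholangiocyte markers and 1 of 6 Kupffer cell markers, while 2 of 6 hepatocyte markers were called higher and 1 lower. The cholangiocyte and Kupffer cell counts rest on 1 gene each, and the Kupffer cell share was near that of all genes. The 6 sinusoidal endothelium markers summed to between 142 and 207 CPM in fed mice and between 121 and 146 in fasted mice, and the 6 cholangiocyte markers to between 33.5 and 49.9 and between 13.8 and 29.7. Stellate cell markers summed to between 201 and 271 CPM in fed and between 174 and 214 in fasted mice. Kupffer cell markers summed to between 408 and 483 CPM in fed Nts+/+ mice and between 201 and 404 in the other 3 groups. The adipocyte list was at most 1.24 CPM in fed and at least 40.0 CPM in fasted mice through *Cidec*, a lipid droplet gene, with *Lep* and *Retn* at 0. The intestinal list, whose 1 tested gene was *Fabp2*, was at most 95.2 CPM in fed and at least 106 CPM in fasted mice, with *Sis* and *Cdx1* at 0. Neutrophil markers reached at most 9.31 CPM, lymphocyte markers at most 7.66, and erythroid markers ran from 64.0 to 204 CPM, with *Ahsp* not in the table. Of the 3 erythroid markers tested, 1 was called lower, *Alas2*, the erythroid enzyme of haem synthesis (−0.77, edgeR adjusted p = 0.00323). The part of other cells in the changes of the 9 genes was not tested.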

How the data were processed

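Total RNA from liver was sequenced. The authors deposited 1 table of expected counts per gene with GRCm38 positions, not scaled between mice. The submitters' processing notes name Trimmomatic and RSEM, and versions and the aligner are not given in the sources used here. All 12 libraries carry 1 batch label, columns of other samples number 0, and 0 pairs of libraries were identical. The paper describes gene set enrichment for these data and refers to earlier work for the method, and a test of single genes is not given in the sources used here.

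Expected counts were rounded. Genes with enough counts (filterByExpr, 13812 genes) entered a single edgeR 4.0.16 fit in R 4.3.3, with TMM factors, 1 mean for each of the 4 groups and robust quasi-likelihood tests adjusted by Benjamini-Hochberg at 0.05 (biological coefficient of variation 0.202). The SE is the log2 fold change divided by the square root of F, and intervals use edgeR's degrees of freedom. Depth ran from 21999647 to 45273069 counts, and 3 counts, a floor that covers counting error only, were 0.0663 to 0.136 CPM. Lengths of 44565 genes came from GENCODE vM39 by Ensembl identifier, and promoters and microRNAs from RefSeq on GRCm38.p6.

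Other settings tried were scaling by RLE or by upper quartile, DESeq2 1.42.0, a filter that only drops genes without counts, a minimum of 10 counts per mouse, fits of the compared groups alone, omission of each mouse in turn, and the union of exons as length. The steps were tested on simulated data. Genes named are the 9 members, the lists of CoA pathway genes, PPARα targets and cell markers, and the 3 genes most correlated with *Vnn1*, *Pank1* and *Nudt7*. 1 gene of the PPARα list is not reported here and was left out of that list's counts. The members and lists were chosen with earlier results of these data known.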

Additional observations from a re-analysis of the deposited data

How the results depend on the processing

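The number of members called stayed within 1.5 times under every alternative, at 3 or 4 of 9 for fasting in Nts+/+, 5 for fasting in livers labelled Nts-/-, 6 over both and 0 for genotype, and leaving out 1 mouse gave 3 to 5, 4 to 6, 5 to 6 and 0. *Vnn1*, *Vnn3* and *Nudt7* kept their fasting calls in all fits. *Ppcs* in Nts+/+ lost its call with only the groups compared (adjusted p = 0.0517), and calls that turned on 1 mouse are given with the results. With 3 mice a group, the calls of *Ppcs* in Nts+/+, *Pank1* within a genotype and *Nudt19* turned on single libraries. No scaling moved the median of all genes by 0.1. Upper-quartile scaling put *Pank2* at −0.018 for fasting over both genotypes. *Nudt7* for genotype in fasted mice, −0.0048, was 0.0015 with RLE, 0.0076 with upper quartile, 0.010 with at least 10 counts and 0.0017 with DESeq2. With the union of exons, *Pank3* was 19.1% in fed and 18.2% in fasted Nts+/+ mice, *Pank1* 73.0% in the latter, and *Pank2* 8.33% in fasted mice labelled Nts-/-. The cause was not tested. No paired analysis was possible because the groups share no replicate numbers. Uncalled changes that passed through 0 on leaving out 1 mouse have the following log2 ranges. For fasting in Nts+/+, the range was −0.058 to 0.028 for *Pank2*. For fasting over both genotypes, the range was −0.00089 to 0.043 for *Pank2* and −0.14 to 0.087 for *Pank3*. For genotype in fed mice, the range was −0.16 to 0.18 for *Vnn3*, −0.058 to 0.29 for *Pank1*, −0.023 to 0.068 for *Pank2*, −0.034 to 0.079 for *Coasy* and −0.24 to 0.13 for *Nudt19*. For genotype in fasted mice, the range was −0.28 to 0.14 for *Vnn1*, −0.040 to 0.17 for *Coasy* and −0.15 to 0.094 for *Nudt7*. For genotype over both feeding states, the range was −0.037 to 0.13 for *Vnn3*, −0.080 to 0.042 for *Ppcs*, −0.014 to 0.093 for *Coasy* and −0.084 to 0.10 for *Nudt19*. For the difference between the fasting changes, the range was −0.10 to 0.24 for *Vnn3*, −0.053 to 0.30 for *Pank1*, −0.053 to 0.15 for *Coasy* and −0.057 to 0.31 for *Nudt19*.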
